A study of Mus musculus with 10 samples.

Results

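The 54 interferon-stimulated effector genes described here were chosen by gene symbol out of 24454 genes in the deposited counts table. They are known from other work to respond to interferon, and the choice was made with earlier results of these data known. All 54 had a row in the table, and 51 had enough reads to be tested. Interferon-stimulated genes are the effector arm of the interferon response: interferon receptors signal through Jak kinases to a transcription factor complex that holds Stat2 and Irf9 and binds the interferon-stimulated response element (ISRE) in gene promoters. Irf1, the transcription factor targeted here, is itself induced by interferon and binds a very similar element, and in unstimulated epithelial cells it is known to keep part of this gene set at a low constant level. The proteins conjugate ISG15 to targets, bind or degrade foreign RNA, block viral fusion and release, attack pathogen-containing vacuoles and prepare antigen for presentation.

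NMuMG/E9 cells, subclone 9 of a mouse mammary gland epithelial line, were transfected with 20 nM of Irf1 siRNA (siIrf1) or control siRNA (siCtr). In the TGFbeta groups, 2 ng/ml recombinant human TGFbeta1 was added 1 d after transfection and the cells were harvested 2 d later. In the 0 d groups the cells were kept without TGFbeta until the same day 3 after transfection. The groups held 3 siIrf1 TGFbeta libraries, 2 siCtr TGFbeta libraries, 3 siIrf1 0 d libraries and 2 siCtr 0 d libraries. All came from 1 subclone and every library came from transfected cells, so untransfected cells were not analysed here. The labels do not say whether the libraries of a group were separate cultures, and the p-values then measure the spread between libraries, which may be technical.

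Libraries held 27547649 to 67301646 counts, with 14475 to 15771 genes detected. Irf1 (Entrez 16362, chr11:53770014-53778374 in GRCm38) had 56.4, 64.1 and 57.7 CPM (read counts scaled to library size by TMM) in siIrf1 0 d libraries, against 148 and 129 CPM in siCtr 0 d libraries. With TGFbeta it had 36.5, 46.2 and 41 CPM in siIrf1 libraries, against 106 and 112 CPM in siCtr libraries. Irf1 was thus 2.33-fold lower at 0 d and 2.64-fold lower with TGFbeta (edgeR adjusted p = 0.000795 and 0.000348), and the groups did not overlap. Of 21 interferon ligand genes in the table, only Ifng, with 1 count, and Ifnz, with 5 counts over all 10 libraries, had any read. Of 5 epithelial markers, Cdh1, Krt8 and Krt18 were abundant, while Epcam and Cldn3 were at 0 in every library but 1, where each had 0.0295 CPM. Of 7 immune markers, Adgre1, Itgax and Cd3e were at or near 0, Csf1r was present in all groups, and Ptprc had 0.659 to 1.02 CPM in siIrf1 0 d libraries, against 0 and 0.0606 CPM in siCtr 0 d libraries. The summed immune level was 42.0 to 58.0 CPM in siIrf1 TGFbeta, 38.3 to 40.8 CPM in siCtr TGFbeta, 39.5 to 46.1 CPM in siIrf1 0 d and 27.4 to 36.0 CPM in siCtr 0 d libraries. Of the fibroblast, pericyte and endothelial markers, Col1a1, Pdgfrb and Cdh5 were present mainly with TGFbeta, and of the plasmacytoid dendritic markers Siglech was at 0 in all libraries. The part of these marker levels in the results was not tested. The libraries also differed in how counts followed the GC content of transcripts. For an index, each gene's log2 level was taken minus its mean over the 10 libraries. The index is the mean of these deviations over the genes lowest in GC minus that over the genes highest in GC. It was 0.22 to 1.03 in siIrf1 0 d libraries against -1.47 and -0.71 in siCtr 0 d libraries. With TGFbeta it was -0.39 to 0.83 in siIrf1 libraries against -0.53 and -0.53 in siCtr libraries.

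Without TGFbeta, 26 of the 51 tested members (51%) fell with Irf1 siRNA and 7 (13.7%) rose at an adjusted p under 0.05 in edgeR's quasi-likelihood test. Over all 13135 genes tested, 15.5% fell and 16.3% rose. The share of members that fell was thus above that of all genes, and the share that rose was not. Because the members were chosen with earlier results of these data known, the choice may have shaped their shares, here and below. The median log2 fold change was -0.58 over the members and -0.03 over all genes. With TGFbeta, 13 members (25.5%) fell and 9 (17.6%) rose, against 8.28% and 9.72% of all genes. The median there was -0.17 over the members and 0.05 over all genes. Both directions occurred within the same gene set, and in bulk RNA fewer cells that express a gene and less RNA per cell cannot be told apart.

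Across the conditions, 11 members fell in both, against 4.35% of all genes, and these were Isg15, Uba7, Lgals3bp, Rtp4, Dtx3l, Parp12, Gbp2, Igtp, Xaf1, Psme1 and Psme2. Another 14 fell at 0 d and were not called with TGFbeta: Ube2l6, Trim25, Ifi35, Ifi27, Oas1a, Oas3, Oasl1, Oasl2, Mx2, Rsad2, Ifitm2, Bst2, Helz2 and Znfx1. Nmi and Parp14 fell with TGFbeta and were not called at 0 d, and Cmpk2 fell at 0 d and rose with TGFbeta. Irf1 siRNA raised 6 members in both conditions (Herc6, Ifit2, Plscr1, Gbp7, Iigp1 and Epsti1), Ifit3 at 0 d, and Oas1b and Cxcl10 with TGFbeta. Called in neither were 14 members: Usp18, Ifit1, Oas2, Samhd1, Ifitm3, Parp9, Gbp3, Irgm1, Sp100, Trim21, Trafd1, Ifi30, Cd274 and Tor3a. These classes rest on a threshold in each condition. Only for the class that fell in both was the share of all genes computed, so the counts of the other classes are not set against all genes. The difference between the conditions itself was called for 3 members (5.88%, against 4.12% of all genes), Oasl2, Cmpk2 and Lgals3bp, so the other 13 members of the class called at 0 d are not shown to respond differently with TGFbeta.

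**Figure D1:**
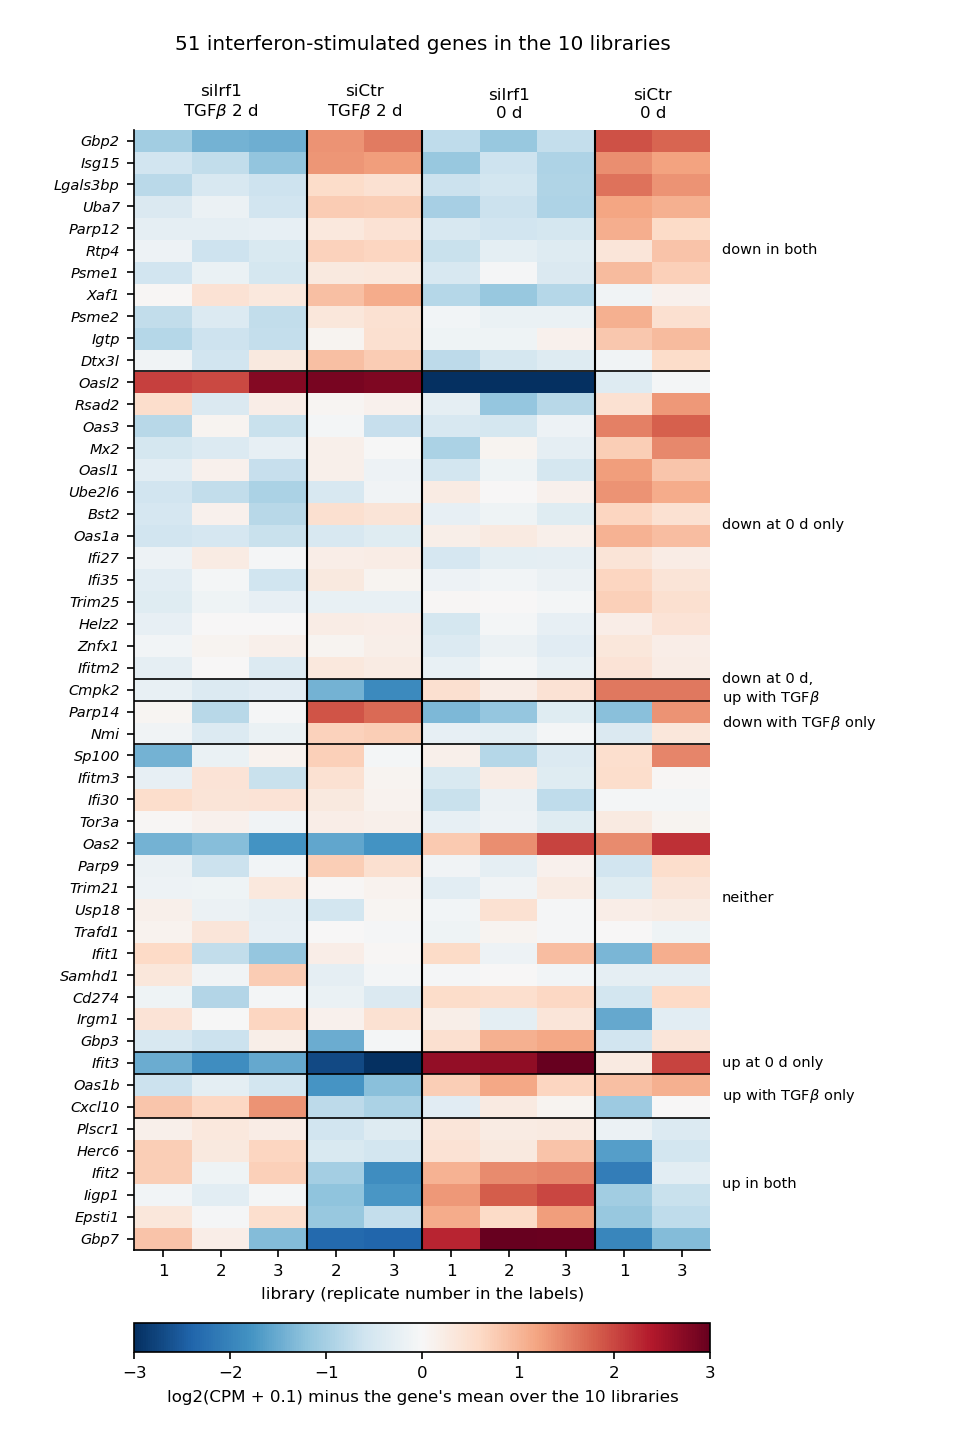
Each row is 1 of the 51 tested members and each column 1 library, grouped by siRNA and TGFbeta, and the colour gives log2(CPM + 0.1) minus the gene's mean over the 10 libraries, with rows ordered by class and values past the ends of the scale in the end colour. The 11 members at the top are lower in siIrf1 than in siCtr libraries both with TGFbeta and at 0 d, and the 6 at the bottom are higher.

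How firmly the calls stood differed between the conditions. At 0 d, 14 of the 33 calls were kept whichever 1 library was left out. With TGFbeta, 4 of the 22 calls were kept: Gbp2, Isg15, Lgals3bp and Uba7. Leaving out siCtr TGFbeta replicate 2 or 3 ended 15 or 18 of those 22 calls, and leaving out siCtr 0 d replicate 1 or 3 ended 12 or 11 of the 33 calls at 0 d. Leaving out 1 library turned the sign of no called member. It also added calls: without siCtr 0 d replicate 3 the difference between the conditions was called for Nmi (-1.31), Parp9 (-1.53), Parp14 (-2.60) and Irgm1 (-1.69), without siIrf1 TGFbeta replicate 1 for Oas3 (2.32) and without siIrf1 0 d replicate 2 for Ifi30 (0.91). At 0 d, Irgm1 (1.71) and Cd274 (1.18) were called higher without siCtr 0 d replicate 3, Ifi30 (-0.67) lower without siIrf1 0 d replicate 2, Sp100 (-1.88) lower without siIrf1 TGFbeta replicate 1 and Tor3a (-0.43) lower without siIrf1 TGFbeta replicate 2. With TGFbeta, Ifit3 (1.38) and Parp9 (-0.95) were called without siCtr 0 d replicate 1 or 3, Ifi35 (-0.64), Samhd1 (0.71) and Bst2 (-1.10) without siIrf1 TGFbeta replicate 2, and Ifitm2 (-0.55 to -0.63) without any 1 of these 3 libraries.

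**Figure D2:**
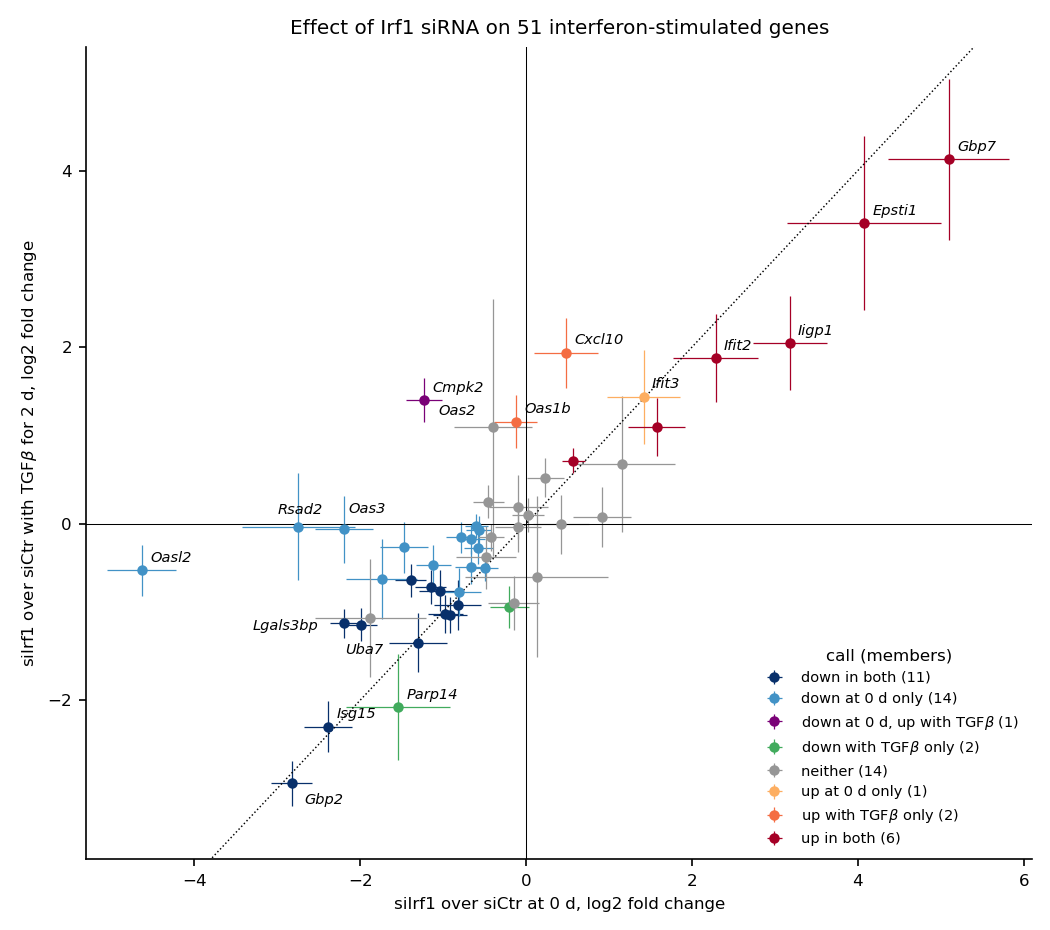
Points are the 51 tested members, with the log2 fold change of siIrf1 over siCtr at 0 d on the x axis and with TGFbeta on the y axis, bars of 1 standard error and colours for the class. Gbp2 and Isg15 lie on the dotted line of equal effects, while Oasl2 (-4.63 at 0 d, -0.53 with TGFbeta) and Cmpk2 (-1.23 and 1.40) lie far above it.

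Members were also compared for the ISRE core, GAAANNGAAA, searched on both strands from 250 bases before to 50 bases after the RefSeq transcription start (GRCm38.p6). A promoter was available for 42 members, of which 17 (40.5%) held the core, against 714 of 18170 genes of the table (3.93%). The core was found in 4 of 10 promoters of members that fell in both conditions, in 5 of 12 of those called lower at 0 d and not with TGFbeta, in 5 of 10 of those called in neither and in 1 of 5 of those that rose in both. The palindromic element TTCNNNGAA (GAS) stood in 9 member promoters (21.4%), against 9.14% of all genes, and in 3 of 5 members that rose in both conditions. A match describes these letters and is not a bound site. The following stretches, in the direction of transcription, hold the core in capitals, as GAAANNGAAA or, on the opposite strand, TTTCNNTTTC. They were chosen so that the elements of genes called lower, higher and in neither can be set side by side. Isg15 (chr4:156200830-156200929, minus strand) holds 3 overlapping copies, and Gbp2 (chr3:142620594-142620623, plus strand) and Igtp (chr11:58199456-58199555, plus strand) hold 1 each. Oas3 (chr5:120777680-120777779, minus strand), Oas1a (chr5:120907526-120907625, minus strand) and Rsad2 (chr12:26456518-26456617, minus strand) are from the class called lower at 0 d. Gbp7 (chr3:142530236-142530335, plus strand) rose in both conditions, Cxcl10 (chr5:92349040-92349139, minus strand) rose with TGFbeta and Ifit1 (chr19:34640759-34640858, plus strand) was called in neither.
Isg15: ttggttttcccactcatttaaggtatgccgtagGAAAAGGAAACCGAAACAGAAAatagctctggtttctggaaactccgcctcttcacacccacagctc
Gbp2: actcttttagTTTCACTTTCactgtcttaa
Igtp: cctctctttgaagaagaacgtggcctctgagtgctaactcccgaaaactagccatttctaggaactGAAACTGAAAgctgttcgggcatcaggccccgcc
Oas3: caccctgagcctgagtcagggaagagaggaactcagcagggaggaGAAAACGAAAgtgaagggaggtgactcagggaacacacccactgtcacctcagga
Oas1a: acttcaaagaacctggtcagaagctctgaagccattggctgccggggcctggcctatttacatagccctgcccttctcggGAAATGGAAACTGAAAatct
Rsad2: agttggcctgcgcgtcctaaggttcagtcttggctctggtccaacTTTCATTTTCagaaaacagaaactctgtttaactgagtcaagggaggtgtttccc
Gbp7: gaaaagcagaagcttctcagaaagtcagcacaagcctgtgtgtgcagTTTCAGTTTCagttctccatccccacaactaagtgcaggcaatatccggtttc
Cxcl10: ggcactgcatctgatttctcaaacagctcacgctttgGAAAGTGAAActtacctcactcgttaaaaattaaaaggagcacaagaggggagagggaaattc
Ifit1: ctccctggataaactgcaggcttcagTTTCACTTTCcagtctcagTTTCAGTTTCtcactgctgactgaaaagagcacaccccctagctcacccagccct

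Within the ISG15 conjugation pathway, Isg15 and its activating enzyme Uba7 fell in both conditions, the conjugating enzyme Ube2l6 fell at 0 d, and Herc6, the main ISG15 ligase of the mouse, rose in both. Isg15 had 0.345, 0.543 and 0.422 CPM in siIrf1 0 d libraries, against 2.47 and 2.18 CPM in siCtr 0 d libraries, a 5.23-fold decrease (log2 -2.39 ± 0.29, standard error, edgeR adjusted p = 0.000718). With TGFbeta Isg15 had 0.561, 0.491 and 0.331 CPM in siIrf1 libraries, against 2.36 and 2.23 CPM in siCtr libraries (log2 -2.30 ± 0.29, adjusted p = 0.000737 in edgeR). The siIrf1 libraries lay below every siCtr library in both conditions, and the Isg15 level of siCtr cells was close with TGFbeta and at 0 d. Uba7 had 8.22, 10.4 and 8.60 CPM in siIrf1 0 d libraries, against 37.6 and 34.3 CPM in siCtr 0 d libraries (log2 -1.98 ± 0.19, edgeR adjusted p = 0.000245). In TGFbeta-treated cells it had 12.1, 14.5 and 10.9 CPM with siIrf1, against 27.8 and 27.4 CPM with siCtr (log2 -1.14 ± 0.19, edgeR adjusted p = 0.00298). Neither gene's groups overlapped, and all 4 of these calls were kept under every alternative that was run.

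Ube2l6 had 5.34, 4.50 and 4.85 CPM in siIrf1 0 d libraries, against 11.5 and 9.73 CPM in siCtr 0 d libraries (log2 -1.12 ± 0.22, edgeR adjusted p = 0.00485). With TGFbeta its level was lower in both siRNA groups, at 2.95, 2.65 and 2.26 CPM in siIrf1 libraries and 3.14 and 4.13 CPM in siCtr libraries, and the siRNA difference was not called (edgeR adjusted p = 0.188). Trim25, a ubiquitin ligase of the RIG-I pathway, had 142 to 153 CPM in siIrf1 0 d libraries, against 206 to 243 CPM in siCtr 0 d libraries (log2 -0.60), a call that ended without siCtr 0 d replicate 1 (log2 -0.49). Herc6 moved the other way, with 7.03, 6.36 and 9.39 CPM in siIrf1 0 d libraries, against 1.57 and 3.49 CPM in siCtr 0 d libraries (log2 1.57 ± 0.34, edgeR adjusted p = 0.00817). With TGFbeta Herc6 had 8.74, 6.4 and 8.12 CPM in siIrf1 libraries, against 3.74 and 3.50 CPM in siCtr libraries (log2 1.10 ± 0.33, edgeR adjusted p = 0.0445). Removing the length and GC trend of each library ended both Herc6 calls (log2 0.13 and 0.37), as did leaving out siCtr 0 d replicate 1 at 0 d (1.11) and any 1 of 7 libraries with TGFbeta (1.00 to 1.10), namely siCtr TGFbeta replicates 2 and 3, all 3 siIrf1 0 d libraries and siIrf1 TGFbeta replicates 1 and 3. Usp18, the protease that removes ISG15, was called in neither condition, with 0.534, 0.814 and 0.554 CPM in siIrf1 0 d and 0.668 and 0.697 CPM in siCtr 0 d libraries.

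The Ifit genes, whose proteins bind foreign RNA ends, did not follow Isg15. Ifit2 had 36.7, 47.6 and 49.3 CPM in siIrf1 0 d libraries, against 4.12 and 14.1 CPM in siCtr 0 d libraries (log2 2.28 ± 0.51, edgeR adjusted p = 0.00946). In TGFbeta-treated cells it had 29.7, 16.1 and 28.9 CPM in siIrf1 libraries, against 8.69 and 4.80 CPM in siCtr libraries (log2 1.88 ± 0.50, edgeR adjusted p = 0.0282). The siIrf1 libraries lay above the siCtr libraries in both conditions, although the siCtr 0 d libraries differed more from each other than the siIrf1 0 d libraries did. Ifit3 had 23.9, 24.3 and 33.0 CPM in siIrf1 0 d libraries, against 4.56 and 15.6 CPM in siCtr 0 d libraries (log2 1.42 ± 0.44, edgeR adjusted p = 0.0341). With TGFbeta Ifit3 was low in all cells, with 1.27, 0.954 and 1.23 CPM in siIrf1 and 0.484 and 0.333 CPM in siCtr libraries, a siRNA difference of similar size that was not called (log2 1.44, edgeR adjusted p = 0.0940). Ifit1 was low and uneven, from 0.226 to 0.580 CPM in siIrf1 0 d libraries and 0.0393 to 0.667 CPM in siCtr 0 d libraries, and was called in neither condition. The Ifit2 call with TGFbeta was lost with siIrf1 TGFbeta replicate 1 (1.73) or 3 (1.76) or siCtr TGFbeta replicate 2 (2.31) or 3 (1.47) left out. The Ifit3 call ended without any 1 of siCtr 0 d replicate 1, siCtr TGFbeta replicates 2 and 3 and the 3 siIrf1 0 d libraries (0.78 to 1.5), and the 2-group fit gave an adjusted p of 0.0701.

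Ifi35 and Nmi, leucine zipper partners that bind each other, were called in different conditions. Ifi35 had 22.3 to 23.9 CPM in siIrf1 0 d libraries, against 32.8 to 39.6 CPM in siCtr 0 d libraries (log2 -0.66). With TGFbeta Ifi35 had 16.55 to 24.2 CPM in siIrf1 libraries, against 26.7 to 30.7 CPM in siCtr libraries (log2 -0.49, edgeR adjusted p = 0.111). Its groups did not overlap in either condition, and the difference between the conditions was not called (0.16, edgeR adjusted p = 0.785). Nmi had 14.3, 11.5 and 13.2 CPM in siIrf1 TGFbeta libraries, against 24.6 and 25.5 CPM in siCtr TGFbeta libraries (log2 -0.94 ± 0.23, edgeR adjusted p = 0.0195). At 0 d its groups overlapped, at 12.4 to 14.7 CPM in siIrf1 and 11.2 to 19.3 CPM in siCtr libraries, and the difference between the conditions was not called. Ifi27, a small membrane protein gene, had 32.6 to 38.1 CPM in siIrf1 0 d libraries, against 54.0 to 60.9 CPM in siCtr 0 d libraries (log2 -0.67), and overlapping groups with TGFbeta. Ifi44 had no read at 0 d and 3 counts over the TGFbeta libraries, 1 of them in a siIrf1 library, and was not tested. The Nmi call ended without siCtr TGFbeta replicate 2 (-1.03) or 3 (-0.97), the Ifi27 call without siCtr 0 d replicate 1 (-0.59) or siIrf1 0 d replicate 1 (-0.60), and the Ifi35 call without any 1 of siCtr 0 d replicate 1, siCtr TGFbeta replicates 2 and 3 and siIrf1 0 d replicates 1 and 3 (-0.53 to -0.65). Removing the length and GC trend left Ifi35 (-0.10) and Ifi27 (-0.18) without a call.

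Of the OAS family, enzymes that make the oligoadenylates which activate RNase L and their relatives, 4 of 6 fell with Irf1 siRNA at 0 d, against 15.5% of all genes. With TGFbeta 1 rose, Oas1b, against 9.72% of all genes, and 5 were not called. In this family the difference between the conditions was called for Oasl2 only. Oasl2 had the largest fitted decrease of the members at 0 d. It had 0.188, 0.0679 and 0.0791 CPM in siIrf1 0 d libraries, against 2.40 and 3.03 CPM in siCtr 0 d libraries, a 24.8-fold decrease (log2 -4.63 ± 0.42, edgeR adjusted p = 0.000189). Under TGFbeta it had 13.3, 12.9 and 21.9 CPM in siIrf1 libraries, against 23.6 and 22.6 CPM in siCtr libraries, a difference that was not called (log2 -0.53 ± 0.29, edgeR adjusted p = 0.253). The change in the siRNA effect between the conditions was 4.10 ± 0.53 on the log2 scale (edgeR adjusted p = 0.00287). It was called under all 18 alternatives. The siIrf1 0 d libraries held only 6, 3 and 3 counts of Oasl2, so the sizes of the decrease at 0 d and of this change are uncertain. Oas3 had 0.628, 0.611 and 0.818 CPM in siIrf1 0 d libraries, against 2.83 and 3.46 CPM in siCtr 0 d libraries (log2 -2.19 ± 0.35, edgeR adjusted p = 0.00214). With TGFbeta its groups overlapped, at 0.472 to 0.983 CPM in siIrf1 and 0.533 to 0.875 CPM in siCtr libraries, and the difference between the conditions was not called (log2 2.13 ± 0.52, edgeR adjusted p = 0.0516). That call depended on the method, since the Oas3 difference was called with DESeq2 (2.12, DESeq2 adjusted p = 0.00982) and once the length and GC trend was removed (1.94, edgeR adjusted p = 0.0369). Oasl1, known in mice to hold back Irf7 translation, had 2.23 to 3.01 CPM in siIrf1 0 d libraries, against 5.91 to 8.01 CPM in siCtr 0 d libraries (log2 -1.47, edgeR adjusted p = 0.00510).

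Oas1a had 9.29 to 10.2 CPM in siIrf1 0 d libraries, against 16.1 to 17.3 CPM in siCtr 0 d libraries (log2 -0.79), and its call ended without siCtr 0 d replicate 1 (-0.75) and on removal of the length and GC trend (-0.33). Oas1b, the flavivirus resistance gene of mice, was called higher with TGFbeta, at 1.12, 1.46 and 1.2 CPM in siIrf1 libraries, against 0.465 and 0.699 CPM in siCtr libraries (log2 1.16 ± 0.30, edgeR adjusted p = 0.0253). At 0 d the Oas1b groups overlapped, at 2.90 to 4.16 CPM in siIrf1 and 3.49 to 3.88 CPM in siCtr libraries. The Oas1b call ended without siCtr TGFbeta replicate 2 (0.81) or 3 (1.40). Oas2 was called in neither siRNA comparison, with 0.502, 0.814 and 1.32 CPM in siIrf1 0 d and 0.825 and 1.49 CPM in siCtr 0 d libraries and no more than 0.0434 CPM in any TGFbeta library.

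**Figure D3:**
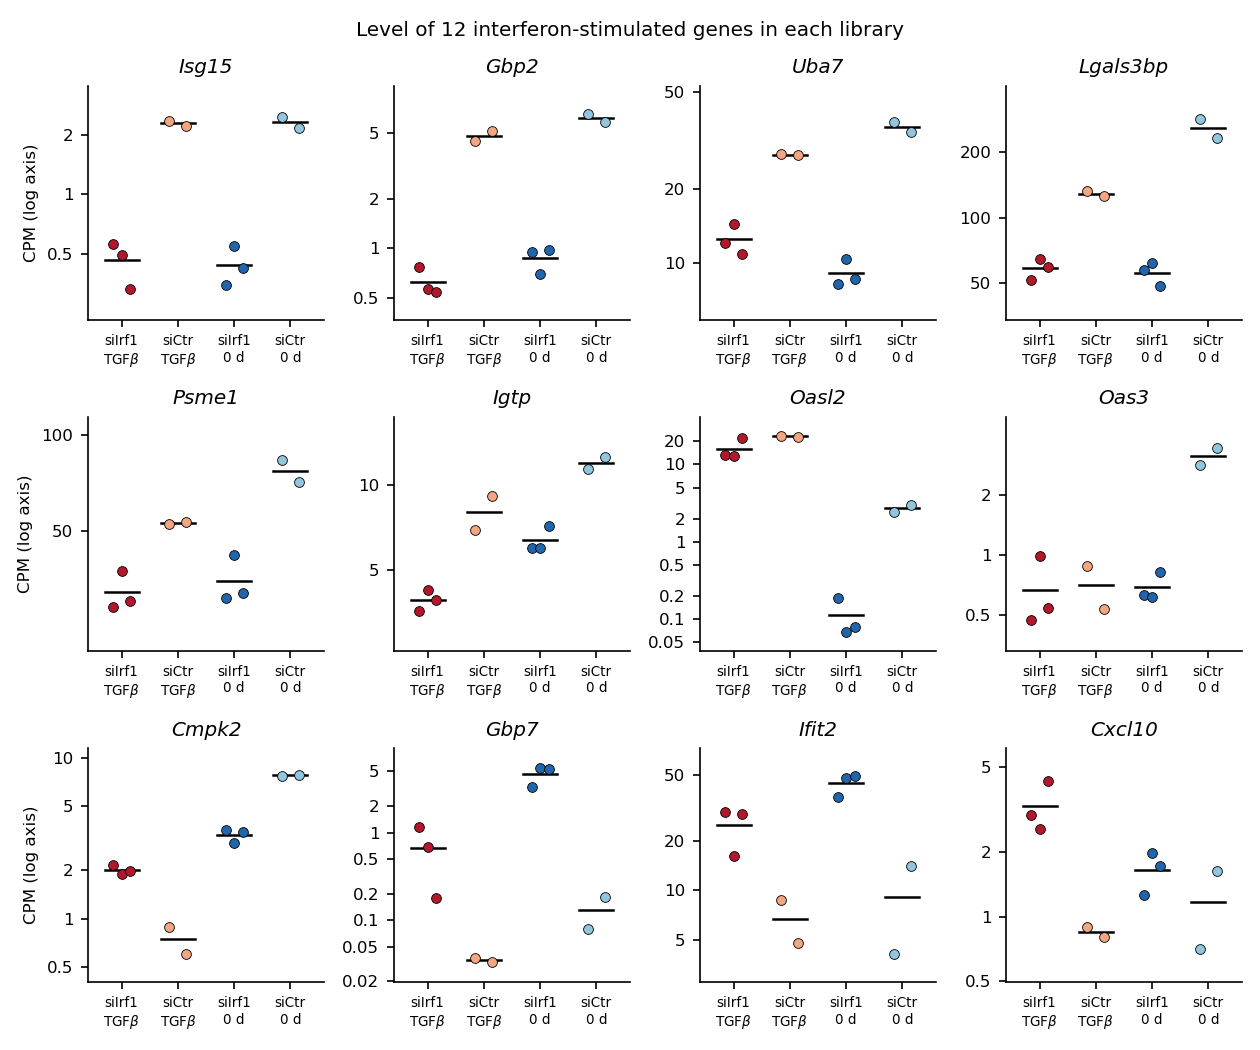
Each panel gives the CPM of 1 member in every library on a log axis, as points by group, with a line at the group mean. In the siIrf1 0 d libraries Oasl2 lies between 0.0679 and 0.188 CPM and in the siIrf1 TGFbeta libraries between 12.9 and 21.9 CPM, whereas Isg15 and Gbp2 stay low in siIrf1 libraries of both conditions.

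Among the antiviral GTPases and nucleotide enzymes, Cmpk2, a mitochondrial nucleotide kinase, fell with Irf1 siRNA at 0 d and rose with TGFbeta. It had 3.55, 2.96 and 3.46 CPM in siIrf1 0 d libraries, against 7.78 and 7.82 CPM in siCtr 0 d libraries (log2 -1.23 ± 0.22, edgeR adjusted p = 0.00311). With TGFbeta Cmpk2 had 2.15, 1.89 and 1.99 CPM in siIrf1 libraries, against 0.893 and 0.6 CPM in siCtr libraries (log2 1.40 ± 0.25, edgeR adjusted p = 0.00453). The groups did not overlap in either condition, and the difference between the conditions was 2.63 ± 0.33 (edgeR adjusted p = 0.00245), called under all 18 alternatives. The increase with TGFbeta was not called without siCtr TGFbeta replicate 3 (1.12). Rsad2, the neighbouring gene that encodes viperin, fell at 0 d, at 0.126, 0.0226 and 0.0528 CPM in siIrf1 libraries, against 0.275 and 0.576 CPM in siCtr libraries (log2 -2.74 ± 0.69, edgeR adjusted p = 0.0144). Its call ended without siCtr 0 d replicate 3 (-2.02) or siIrf1 0 d replicate 3 (-2.64). Mx2 had 0.126 to 0.362 CPM in siIrf1 0 d libraries, against 0.628 to 1.09 CPM in siCtr 0 d libraries (log2 -1.74), a call that ended without siCtr 0 d replicate 3 (-1.21). Mx1 had at most 8 counts in a library and was not tested. Samhd1, which breaks down deoxynucleotides, was abundant and called in neither condition, at 99.3, 104 and 96.1 CPM in siIrf1 0 d and 84.3 and 85.5 CPM in siCtr 0 d libraries.

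Of the membrane and secreted restriction factors, Lgals3bp, a secreted glycoprotein that binds galectin-3, fell in both conditions. It had 57.7, 61.9 and 48.4 CPM in siIrf1 0 d libraries, against 281 and 232 CPM in siCtr 0 d libraries (log2 -2.20 ± 0.17, edgeR adjusted p = 0.000137). With TGFbeta it had 52.0, 64.9 and 59.3 CPM in siIrf1 libraries, against 132 and 125 CPM in siCtr libraries (log2 -1.13 ± 0.16, edgeR adjusted p = 0.00153). The siIrf1 level was close in the 2 conditions while the siCtr level was lower with TGFbeta, and the difference between the siRNA effects was 1.06 ± 0.24 (edgeR adjusted p = 0.0349). That difference was not called without any 1 of siCtr 0 d replicate 1, siCtr TGFbeta replicates 2 and 3, siIrf1 0 d replicates 1 and 3 and siIrf1 TGFbeta replicate 3 (0.88 to 1.09), while both siRNA effects were called under every alternative. Rtp4, a receptor transporter, had 0.220, 0.317 and 0.290 CPM in siIrf1 0 d libraries, against 0.550 and 0.819 CPM in siCtr 0 d libraries (log2 -1.3 ± 0.35, edgeR adjusted p = 0.0200). In TGFbeta-treated cells it had 0.354, 0.231 and 0.271 CPM in siIrf1 libraries, against 0.726 and 0.699 CPM in siCtr libraries (log2 -1.35 ± 0.34, edgeR adjusted p = 0.0203). The Rtp4 calls ended at 0 d without siCtr 0 d replicate 3 (-0.91) or siIrf1 0 d replicate 1 (-1.18) or 3 (-1.33), and with TGFbeta without siIrf1 TGFbeta replicate 2 (-1.18) or siCtr TGFbeta replicate 2 (-1.37) or 3 (-1.41).

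Plscr1, a phospholipid scramblase, was called higher in both conditions by small amounts, with 223, 204 and 208 CPM in siIrf1 0 d libraries, against 154 and 131 CPM in siCtr 0 d libraries (log2 0.57 ± 0.14, edgeR adjusted p = 0.0143). Under TGFbeta it had 191, 217 and 202 CPM in siIrf1 libraries, against 117 and 132 CPM in siCtr libraries (log2 0.71 ± 0.14, edgeR adjusted p = 0.00786). Once the length and GC trend was removed, the Plscr1 difference at 0 d was -0.07 and no longer a call, and with TGFbeta it was 0.42 and not called. The calls also ended without siCtr 0 d replicate 3 (0.53) or siIrf1 0 d replicate 1 (0.54), and without siCtr TGFbeta replicate 2 (0.57) or 3 (0.76). Bst2, the tetherin that holds virions at the cell surface, had 7.91 to 9.34 CPM in siIrf1 0 d libraries, against 14.2 to 16.0 CPM in siCtr 0 d libraries (log2 -0.81). Ifitm2, of a family that blocks viral fusion, had 102 to 114 CPM in siIrf1 0 d libraries, against 139 to 159 CPM in siCtr 0 d libraries (log2 -0.49). Both calls were at the edge of the threshold: that of Bst2 ended without any 1 of 8 libraries (-0.73 to -0.87), all but siIrf1 TGFbeta replicates 2 and 3, that of Ifitm2 without any 1 of 7 (-0.41 to -0.52), the same except siIrf1 0 d replicate 2, and removing the length and GC trend put Ifitm2 at 0.09 and Bst2 at -0.20. With TGFbeta Bst2 had 5.72 to 11.3 CPM in siIrf1 and 13.4 to 14.2 CPM in siCtr libraries (log2 -0.77, edgeR adjusted p = 0.0727). Ifitm2 there had 89.4 to 120 CPM in siIrf1 and 141 to 149 CPM in siCtr libraries (log2 -0.50, edgeR adjusted p = 0.053). The siIrf1 libraries of both genes lay below the siCtr libraries in each condition, and neither gene's difference between the conditions was called. Ifitm3 was called in neither condition, with 2.10, 3.44 and 2.27 CPM in siIrf1 0 d and 4.28 and 3.03 CPM in siCtr 0 d libraries.

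All 4 ADP-ribosylation genes had lower fitted levels with siIrf1 in both conditions, although the groups of Parp9 and Parp14 overlapped at 0 d. Of these genes, 2 fell in both conditions, against 4.35% of all genes. Parp12, a mono-ADP-ribosyltransferase, had 11.7, 10.9 and 11.3 CPM in siIrf1 0 d libraries, against 34.9 and 24.5 CPM in siCtr 0 d libraries (log2 -1.39 ± 0.19, edgeR adjusted p = 0.00105). With TGFbeta it had 13.5, 13.6 and 13.9 CPM in siIrf1 libraries, against 20.5 and 22.1 CPM in siCtr libraries (log2 -0.64 ± 0.19, edgeR adjusted p = 0.0392). Dtx3l, a ubiquitin ligase that acts as a dimer with Parp9, had 9.07, 11 and 12 CPM in siIrf1 0 d libraries, against 14.6 and 23.2 CPM in siCtr 0 d libraries (log2 -0.82 ± 0.28, edgeR adjusted p = 0.0492). In TGFbeta-treated cells Dtx3l had 14.6, 10.6 and 19.5 CPM with siIrf1, against 29.5 and 26.8 CPM with siCtr (log2 -0.92 ± 0.28, edgeR adjusted p = 0.0473). Parp9 itself, which shares 458 exon bases with Dtx3l on the opposite strand, had 18.6, 13.2 and 19.8 CPM in siIrf1 TGFbeta libraries, against 34.7 and 29.4 CPM in siCtr TGFbeta libraries, and was not called (log2 -0.90, edgeR adjusted p = 0.0709). At 0 d Parp9 had 17.3 to 22.7 CPM in siIrf1 and 13.9 to 30.1 CPM in siCtr libraries (log2 -0.15, edgeR adjusted p = 0.732). Parp14, another mono-ADP-ribosyltransferase, fell with TGFbeta, at 2.48, 1.3 and 2.35 CPM in siIrf1 libraries, against 9.06 and 8.03 CPM in siCtr libraries (log2 -2.08 ± 0.60, edgeR adjusted p = 0.0383). At 0 d Parp14 had 0.879 to 1.82 CPM in siIrf1 libraries, while the siCtr libraries stood far apart, with 0.942 CPM in replicate 1 and 6.21 CPM in replicate 3.

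The calls of this group with TGFbeta were not firm. Those of Parp12 (-0.63 to -0.75), Dtx3l (-0.72 to -1.03) and Parp14 (-1.82 to -2.25) ended without any 1 of 7 libraries each: siCtr TGFbeta replicates 2 and 3 and siIrf1 TGFbeta replicate 1 for all 3 genes, siIrf1 TGFbeta replicate 2 for Dtx3l and Parp14 and replicate 3 for Parp12 and Parp14, the siIrf1 0 d libraries for Parp12 and Dtx3l, and siIrf1 0 d replicates 1 and 2 for Parp14. The Parp14 difference at 0 d was called once siCtr 0 d replicate 1 was left out (-2.33, edgeR adjusted p = 0.00804). At 0 d the Dtx3l call ended without siCtr 0 d replicate 3 (-0.38), any siIrf1 0 d library, siIrf1 TGFbeta replicate 1 or either siCtr TGFbeta library (-0.72 to -0.91 without each of these others), whereas that of Parp12 was kept under every alternative.

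The GTPases that act on pathogen-containing vacuoles divided into genes that fell and genes that rose. Gbp2 had 0.942, 0.701 and 0.976 CPM in siIrf1 0 d libraries, against 6.56 and 5.82 CPM in siCtr 0 d libraries (log2 -2.83 ± 0.25, edgeR adjusted p = 0.000174). In TGFbeta-treated cells it had 0.767, 0.564 and 0.542 CPM in siIrf1 libraries, against 4.45 and 5.13 CPM in siCtr libraries (log2 -2.94 ± 0.25, edgeR adjusted p = 0.000107). Its decreases, 7.09-fold and 7.68-fold, were called under every alternative. Igtp, an immunity-related GTPase, had 5.96, 5.99 and 7.18 CPM in siIrf1 0 d libraries, against 11.4 and 12.6 CPM in siCtr 0 d libraries (log2 -0.92 ± 0.21, edgeR adjusted p = 0.00926). With TGFbeta Igtp had 3.57, 4.24 and 3.91 CPM in siIrf1 libraries, against 6.92 and 9.13 CPM in siCtr libraries (log2 -1.03 ± 0.21, edgeR adjusted p = 0.00785). Its calls ended without siCtr 0 d replicate 3 (-0.77) and without siCtr TGFbeta replicate 3 (-0.86).

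Gbp7, which lies beside Gbp2 and Gbp3 on chromosome 3, went the opposite way. It had 3.30, 5.52 and 5.36 CPM in siIrf1 0 d libraries, against 0.0785 and 0.182 CPM in siCtr 0 d libraries, a 34.2-fold increase (log2 5.09 ± 0.73, edgeR adjusted p = 0.00141). Under TGFbeta it had 1.15, 0.694 and 0.181 CPM in siIrf1 libraries, against 0.0372 and 0.0333 CPM in siCtr libraries. That is 93 counts over the siIrf1 libraries against 3 counts over the siCtr libraries, a ratio of 19.1 with an exact counting interval of 6.32 to 94.1 at the libraries' depths (edgeR adjusted p = 0.0125). Iigp1, an immunity-related GTPase, had 1.00, 1.49 and 1.71 CPM in siIrf1 0 d libraries, against 0.118 and 0.182 CPM in siCtr 0 d libraries (log2 3.18 ± 0.45, edgeR adjusted p = 0.00122). With TGFbeta Iigp1 had 0.325, 0.260 and 0.331 CPM in siIrf1 libraries, against 0.0930 and 0.0333 CPM in siCtr libraries (log2 2.05 ± 0.53, edgeR adjusted p = 0.0240). Both increases at 0 d were called under every alternative. With TGFbeta the Gbp7 call ended without siCtr TGFbeta replicate 2 (4.16) or 3 (4.03), and the Iigp1 call without siIrf1 TGFbeta replicate 1 (2.00) or 3 (1.98) or siCtr TGFbeta replicate 2 (3.00) or 3 (1.62). Irgm1 and Gbp3 were called in neither condition. Irgm1, a regulatory GTPase of this family, had 183, 130.2 and 206 CPM in siIrf1 0 d libraries and 55.4 and 128 CPM in siCtr 0 d libraries, and Gbp3 had 0.440 to 0.765 CPM in siIrf1 0 d and 0.157 to 0.394 CPM in siCtr 0 d libraries.

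Of the nucleic acid sensors and nuclear factors, Xaf1, a pro-apoptotic binding partner of XIAP, fell in both conditions. It had 0.879, 0.701 and 0.871 CPM in siIrf1 0 d libraries, against 1.53 and 1.82 CPM in siCtr 0 d libraries (log2 -1.04 ± 0.25, edgeR adjusted p = 0.0131). With TGFbeta it had 1.71, 2.28 and 2.11 CPM in siIrf1 libraries, against 3.20 and 3.73 CPM in siCtr libraries (log2 -0.76 ± 0.23, edgeR adjusted p = 0.0465). The call at 0 d ended without siCtr 0 d replicate 3 (-0.84), and that with TGFbeta without any 1 of siCtr TGFbeta replicates 2 and 3, siIrf1 0 d replicates 1 and 3 and siIrf1 TGFbeta replicates 1 and 3 (-0.65 to -0.92). The helicase genes Helz2 and Znfx1 fell at 0 d by small amounts, Helz2 to 44.5 to 61.8 CPM in siIrf1 libraries, against 73.8 to 86.1 CPM in siCtr libraries (log2 -0.58), and Znfx1 to 40.6 to 47.4 CPM, against 61.3 to 67.6 CPM (log2 -0.57). Each of these 2 calls ended without any 1 of siCtr 0 d replicates 1 and 3, siCtr TGFbeta replicates 2 and 3 and siIrf1 0 d replicates 1 and 3 (-0.40 to -0.69 for Helz2 and -0.51 to -0.57 for Znfx1), as it did on removal of the length and GC trend (-0.25 and -0.22). Zbp1, a sensor of Z-form nucleic acids, had no read in siIrf1 0 d and 3 counts in siCtr 0 d libraries, and 16 and 20 counts in siIrf1 and siCtr TGFbeta libraries, and was not tested. Trafd1, at 30.3, 35.1 and 32.5 CPM in siIrf1 0 d and 33.5 and 30.6 CPM in siCtr 0 d libraries, and the antibody receptor Trim21, at 5.12 to 7.70 CPM and 4.99 to 8.37 CPM, were called in neither condition. Sp100, a nuclear body protein, had lower values in siIrf1 than in siCtr 0 d libraries without a call (0.0905 to 0.283 CPM against 0.393 to 0.849 CPM, edgeR adjusted p = 0.0563).

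Psme1 and Psme2, the subunits of the interferon-inducible proteasome activator, fell together. Psme1 had 30.6, 42.0 and 31.8 CPM in siIrf1 0 d libraries, against 83.4 and 71.3 CPM in siCtr 0 d libraries (log2 -1.15 ± 0.19, edgeR adjusted p = 0.00252). In TGFbeta-treated cells it had 28.7, 37.4 and 30.1 CPM in siIrf1 libraries, against 52.5 and 53.5 CPM in siCtr libraries (log2 -0.72 ± 0.19, edgeR adjusted p = 0.0270). Psme2 had 13.6, 12.7 and 12.6 CPM in siIrf1 0 d libraries, against 30.6 and 20.4 CPM in siCtr 0 d libraries (log2 -0.97 ± 0.21, edgeR adjusted p = 0.00830). With TGFbeta Psme2 had 8.74, 11 and 8.64 CPM in siIrf1 libraries, against 18.5 and 20.1 CPM in siCtr libraries (log2 -1.02 ± 0.21, edgeR adjusted p = 0.00919). The Psme1 call with TGFbeta ended without siIrf1 TGFbeta replicate 1 (-0.65) or 3 (-0.68) or siCtr TGFbeta replicate 2 (-0.79) or 3 (-0.75), and the Psme2 calls without siCtr 0 d replicate 1 (-0.66) and siCtr TGFbeta replicate 3 (-1.0). Cxcl10, the chemokine that draws activated T cells, was called higher with TGFbeta, at 2.98, 2.56 and 4.30 CPM in siIrf1 libraries, against 0.893 and 0.799 CPM in siCtr libraries (log2 1.94 ± 0.40, edgeR adjusted p = 0.00862). At 0 d its groups overlapped, at 1.26 to 1.99 CPM in siIrf1 and 0.707 to 1.64 CPM in siCtr libraries, and the call with TGFbeta ended without siCtr TGFbeta replicate 2 (1.97) or 3 (1.82). The lysosomal reductase Ifi30, at 52.0, 74.1 and 49.0 CPM in siIrf1 0 d and 80.3 and 79.8 CPM in siCtr 0 d libraries, and the checkpoint ligand Cd274, at 35.3, 34.2 and 37.0 CPM in siIrf1 0 d and 16.4 and 36.7 CPM in siCtr 0 d libraries, were called in neither condition.

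Epsti1 was nearly silent in siCtr cells. It had 0.377, 0.226 and 0.422 CPM in siIrf1 0 d libraries, against 0 and 0.0303 CPM in siCtr 0 d libraries, or 38 counts against 1 count, a ratio of 19.5 with a counting interval of 3.29 to 790 (edgeR adjusted p = 0.00994). Under TGFbeta it had 0.177, 0.116 and 0.211 CPM in siIrf1 libraries, against 0 and 0.0333 CPM in siCtr libraries, or 21 counts against 1 count (edgeR adjusted p = 0.0376). The calls ended without siCtr 0 d replicate 1 (3.34) and without siIrf1 TGFbeta replicate 1 (3.35) or 3 (3.22) or siCtr TGFbeta replicate 2 (2.11) or 3 (5.71). Tor3a, a torsin ATPase, was not called, at 35.8, 38.2 and 32.6 CPM in siIrf1 0 d and 51.2 and 44.3 CPM in siCtr 0 d libraries (edgeR adjusted p = 0.0605).

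Treatment with TGFbeta itself lowered 9 members (17.6%) and raised 3 (5.88%) in siIrf1 cells, against 9.71% and 11.6% of all genes, and lowered 10 (19.6%) and raised 3 (5.88%) in siCtr cells, against 16.3% and 16.1% of all genes. The same libraries also served in the siRNA comparisons, so the values are given side by side only. The OAS family held 4 of the 12 calls in siIrf1 cells (1 raised and 3 lowered) and 6 of the 13 in siCtr cells (1 raised and 5 lowered). Oasl2 rose 146-fold in siIrf1 cells (log2 7.19 ± 0.40, edgeR adjusted p = 2.06e-06) and 8.49-fold in siCtr cells (log2 3.09 ± 0.35, edgeR adjusted p = 0.00012). The size of the rise in siIrf1 cells is uncertain, since the siIrf1 0 d libraries held 6, 3 and 3 counts of Oasl2. Oas1a fell by 0.79 on the log2 scale in siIrf1 cells and by 1.42 in siCtr cells, and Oas1b fell by 1.41 and 2.69 in the same 2 groups. Oas2 had 4 counts over the siIrf1 TGFbeta libraries and 1 count over the siCtr TGFbeta libraries, and the decreases were called in both (edgeR adjusted p = 0.000514 and 0.000565). Oas3 fell in siCtr cells (log2 -2.12, edgeR adjusted p = 0.00255) and was at 0.01 in siIrf1 cells. Oasl1 fell in siCtr cells (log2 -1.07), a call that was lost when any 1 of siCtr TGFbeta replicates 2 and 3 and siCtr 0 d replicate 1 was dropped (-0.79 to -1.13).

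Outside that family, Ifit3 fell 23.7-fold in siIrf1 cells (log2 -4.56 ± 0.44, edgeR adjusted p = 5.8e-05) and 24.0-fold in siCtr cells (log2 -4.59 ± 0.57, edgeR adjusted p = 0.000229). Cmpk2 fell by 0.72 in siIrf1 cells and by 3.35 in siCtr cells, and Ube2l6 by 0.90 and 1.55. Lgals3bp fell in siCtr cells (log2 -1.0, edgeR adjusted p = 0.00226) and was at 0.07 in siIrf1 cells. Gbp7 (-2.80) and Iigp1 (-2.22), the genes raised by Irf1 siRNA, fell with TGFbeta in siIrf1 cells, as did Igtp (-0.70). In siCtr cells these 3 had values of -1.83, -1.09 and -0.59 and were not called. The difference between the siRNA groups was not called for any of them (edgeR adjusted p = 0.789, 0.48 and 0.86). Xaf1 rose in siIrf1 (1.32) and siCtr cells (1.04), Ifi30 rose in siIrf1 cells (0.96), Irgm1 rose in siCtr cells (1.11) and Trim25 fell in siCtr cells (-0.81). The values above come from the main fit, which left the replicate numbers out. With the replicate block, fitted over all 10 libraries, Gbp3 (-1.63, edgeR adjusted p = 0.0327) and Cxcl10 (0.98, edgeR adjusted p = 0.0389) were called as well in siIrf1 cells. The Cmpk2 call in siIrf1 cells ended without siIrf1 0 d replicate 1 or 3 or any siIrf1 TGFbeta library (-0.68 to -0.78). That of Igtp ended without siIrf1 0 d replicate 1 or 3 or siIrf1 TGFbeta replicate 1 or 3 (-0.61 to -0.75) and that of Trim25 without siCtr TGFbeta replicate 2 (-0.71). The Xaf1 call in siCtr cells ended without siCtr TGFbeta replicate 3 (1.00) or siCtr 0 d replicate 1 (0.97), and that of Irgm1 without any 1 of 8 libraries (0.67 to 1.33), all but siCtr 0 d replicate 3 and siIrf1 TGFbeta replicate 2. Leaving out 1 library also added calls, among them these. Without siCtr 0 d replicate 3, Herc6 (1.32), Nmi (1.28), Parp9 (1.33), Dtx3l (1.06) and Parp14 (3.3) were called higher in siCtr cells. Mx2 (-1.24) was called lower there without siIrf1 0 d replicate 1, and Psme1 (-0.55) without siIrf1 TGFbeta replicate 2. In siIrf1 cells Cd274 was not called (-0.88, edgeR adjusted p = 0.0663). It was called lower with the length and GC trend removed (-0.87, edgeR adjusted p = 0.00545).

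**Figure D4:**
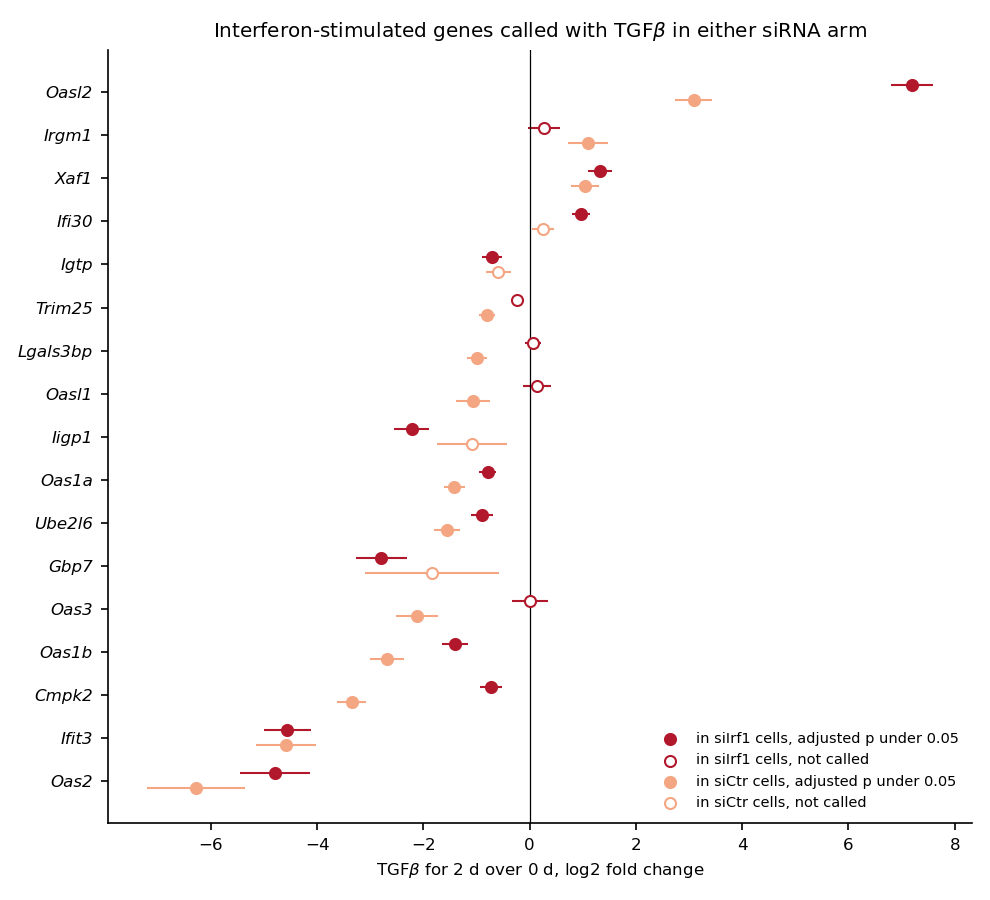
The log2 fold change of TGFbeta over 0 d is shown for the 17 members called in siIrf1 or siCtr cells, with siIrf1 above siCtr in each row, bars of 1 standard error and filled points for an adjusted p under 0.05. Oasl2 rose by 7.19 in siIrf1 cells and 3.09 in siCtr cells, and Cmpk2 fell by 0.72 and 3.35.

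Other genes of the pathway were tested in the same fit. Of 19 interferon signalling genes, 14 were tested. Irf1 siRNA lowered 3 of them (21.4%) at 0 d and 2 (14.3%) with TGFbeta, against 15.5% and 8.28% of all genes, at an adjusted p under 0.05 in edgeR, and the other tested genes of this list were not called. Stat2, the signal transducer of type I interferon, fell in both, at 18.6, 22.4 and 19.0 CPM in siIrf1 0 d libraries, against 55.3 and 47.8 CPM in siCtr 0 d libraries (log2 -1.36 ± 0.19, edgeR adjusted p = 0.00126). With TGFbeta Stat2 had 24.1, 30.7 and 35.9 CPM in siIrf1 libraries, against 55.5 and 59.4 CPM in siCtr libraries (log2 -0.93 ± 0.19, edgeR adjusted p = 0.00931). The receptor subunits Ifngr2 (-0.93) and Ifnar2 (-0.69) fell at 0 d and Ifnar1 (-0.72) fell with TGFbeta, whereas Irf9 was not called. Of 35 further interferon-stimulated genes, 32 were tested, and 4 (12.5%) fell and 5 (15.6%) rose at 0 d, against 15.5% and 16.3% of all genes. With TGFbeta 1 (3.12%) fell and 3 (9.38%) rose, against 8.28% and 9.72% of all genes. No share of this list was above that of all genes. Slfn9 rose in both, at 4.05, 5.70 and 5.33 CPM in siIrf1 0 d libraries, against 0.432 and 1.03 CPM in siCtr 0 d libraries (log2 2.75 ± 0.44, edgeR adjusted p = 0.00225), and by 2.61 with TGFbeta. Casp4, an inflammatory caspase, also rose in both (1.72 and 1.80). Adar was among the 4 that fell at 0 d (-0.63, edgeR adjusted p = 0.0131). Slfn2 rose with TGFbeta (0.74, edgeR adjusted p = 0.0191). It was the only gene of this list called in the difference between the conditions (1.13, edgeR adjusted p = 0.0371).

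Levels per length and base composition were also compared across the classes. On the RPKM scale, which also divides by gene length, the tested members ranged in siCtr 0 d cells from Epsti1 at 0.00653 to Ifitm2 at 237. Those that fell in both conditions ran from Rtp4 (0.435) to Psme1 (79.2) and Lgals3bp (118). Those that rose in both ran from Epsti1, Gbp7 (0.0232) and Iigp1 (0.0480) to Plscr1 (66.5), so the 2 classes overlapped. The GC content had a median of 41.9% over the 6 members that rose in both conditions, 50.6% over the 11 that fell in both, 53.3% over the 14 called lower at 0 d and not with TGFbeta, 48.4% over the 14 called in neither and 49.8% over all genes tested. Removing the length and GC trend of each library gave 21 members lower and 6 higher at 0 d and 13 lower and 7 higher with TGFbeta. These were not all the same members. It ended, at 0 d, the calls of Herc6, Plscr1, Ifi35, Ifi27, Oas1a, Ifitm2, Bst2, Helz2, Znfx1 and Rtp4 (-1.03), and with TGFbeta those of Herc6, Plscr1, Iigp1 (1.36) and Psme1 (-0.43). It added, at 0 d, lower calls of Nmi (-0.63), Parp14 (-1.79) and Sp100 (-2.20) and a higher call of Trafd1 (0.57). With TGFbeta it added a lower call of Bst2 (-0.54) and a higher call of Samhd1 (0.67). That setting also moved the median of all genes at 0 d to 0.145, against -0.03 without it. The share of all genes called under that setting was not computed. Its counts of members can therefore not be set against the shares of the main fit.

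Some members share sequence or exons with other genes, and neither the counting tool nor its use of strand is given in the sources used here, so their counts are uncertain. This applies to the Ifit, Oas, Gbp, Ifitm and Irg families, whose reads can be split between close copies, and to exons that overlap another gene. On the same strand, Ifitm2 shares 40.9% of its exon bases with Gm45717, Rtp4 13.9% with Gm45338 and Herc6 13.7% with Gm45193. Gbp7 shares 11.3% with a pseudogene and Igtp 8.01% with Irgm2, also on the same strand. Ifi35 and Cd274 overlap antisense transcripts over 16.8% and 14.1%.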

How the data were processed

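Total RNA of 10 libraries was sequenced and the authors deposited a table of raw counts per gene, indexed by Entrez identifier with a gene length. The submitters' processing notes name STAR and the builds mm10 and GRCm38; for the counting tool and strand setting, the sources used here give nothing. Symbols came from RefSeq GRCm38.p6 (24374) or GENCODE M21 (7); 73 identifiers with 0.211 to 1.50% of the counts had no match.

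All 10 libraries were fitted once with a coefficient for each group, with edgeR 4.0.16 in R 4.3.3 (TMM scaling, filterByExpr, robust quasi-likelihood F test, Benjamini-Hochberg adjustment over the 13135 genes kept, threshold 0.05). Standard errors were derived from log2 fold change and F. The fit was tested on simulated counts. DESeq2 1.42.0, other filters and scaling, a replicate block, trend removal (splines with 5 degrees of freedom) and left-out libraries were the alternatives. Counting intervals are exact 95% Poisson ratios and cover counting error only.

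The members and gene lists were chosen with earlier results of these data known. Values in every library are given for Irf1, for up to 3 members per role group called lower in both conditions, for members called in the difference between conditions or higher, and for up to 2 per role group called in neither with the highest mean CPM. Same-numbered siIrf1 TGFbeta and siIrf1 0 d libraries deviated together (correlations 0.132, 0.423 and 0.278). The replicate numbers entered the replicate block only, and the main fit left them out. The labels do not state a shared origin. The titles also carry a tag (e2, e3 or e4) that runs with the replicate number in all 4 groups and is not explained in the labels. The siCtr groups hold no replicate 2 at 0 d and no replicate 1 with TGFbeta. Replicates differed beyond sampling noise. Results for some items are not reported here.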

Additional observations from a re-analysis of the deposited data

Results flagged for a closer look

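For 3 members the effect of Irf1 siRNA differed between TGFbeta-treated and 0 d cells in edgeR's test of that difference. For Oasl2 the log2 fold change of siIrf1 over siCtr was -0.53 with TGFbeta and -4.63 at 0 d, a difference of 4.10 (edgeR adjusted p = 0.00287). For Cmpk2 it was 1.40 with TGFbeta and -1.23 at 0 d, a difference of 2.63 (edgeR adjusted p = 0.00245). For Lgals3bp it was -1.13 with TGFbeta and -2.20 at 0 d, a difference of 1.06 (edgeR adjusted p = 0.0349), which was not called without siCtr 0 d replicate 1 (0.88), siCtr TGFbeta replicate 2 (1.01) or 3 (0.95), siIrf1 0 d replicate 1 (1.09) or 3 (0.97) or siIrf1 TGFbeta replicate 3 (1.06).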

How the results depend on the processing

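With 1 library left out, the number of members that fell with Irf1 siRNA was 16 to 27 at 0 d, 4 to 15 with TGFbeta and 4 to 12 in both, and the number that rose was 4 to 8 at 0 d and 0 to 10 with TGFbeta. The number with a difference between the conditions was 2 to 7, and TGFbeta raised 3 to 5 members in siIrf1 and 1 to 8 in siCtr cells. DESeq2 gave 6 members with a difference between the conditions and 8 raised by TGFbeta in siIrf1 cells. With the length and GC trend removed these counts were 5 and 5, and 5 were raised in siCtr cells. With the trend removed and the replicate block together, 6 were raised in siIrf1 cells. With only the 2 groups compared, 8 members fell with Irf1 siRNA under TGFbeta and 1 rose with TGFbeta in siCtr cells. Leaving out both siIrf1 TGFbeta replicate 2 and siCtr 0 d replicate 1 gave 17 that fell under TGFbeta, 14 that fell in both, and 9 raised by TGFbeta in siIrf1 and 1 in siCtr cells. Ifitm2 at 0 d was 0.093 with the trend removed and 0.131 with the replicate block as well, and Plscr1 was -0.0737 and -0.125. The share of all genes called was not computed for any of the alternatives, and the cause of these changes was not tested.

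With the replicate block alone, 28 members fell and 8 rose with Irf1 siRNA at 0 d, 11 fell and 8 rose with TGFbeta, 10 fell in both and 4 differed between the conditions; TGFbeta lowered 10 and raised 4 in siIrf1 cells and lowered 12 and raised 3 in siCtr cells. The block added calls at 0 d for Irgm1 (1.12, edgeR adjusted p = 0.0174), Ifi30 (-0.55, 0.0421) and Tor3a (-0.46, 0.0351), with TGFbeta for Ifitm2 (-0.50, 0.0431), and in the difference between the conditions for Oas3 (2.42, 0.0393). In siCtr cells it added TGFbeta calls for Mx2 (-1.61, edgeR adjusted p = 0.0237) and Psme1 (-0.68, 0.0318). With TGFbeta the siRNA difference was not called under the block for Ifit2 (2.00, edgeR adjusted p = 0.0570), Dtx3l (-0.87, 0.0572), Parp14 (-1.93, 0.0797) or Xaf1 (-0.71, 0.0750). Groups with siCtr share at most 2 replicate numbers, and their same-numbered libraries had correlations of -0.36 to 0.321. Between siIrf1 and siCtr they were 0.118 and 0.303 at 0 d and -0.0273 and 0.0473 with TGFbeta. The 2 libraries of a siCtr group deviate from their mean by equal and opposite amounts, so these correlations cannot decide whether the numbers are pairs. The main fit left the replicate numbers out, and the block stands as an alternative. Members under about 1 CPM rest on few reads, and 2 siCtr libraries per condition limit every comparison.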
